A study of Mus musculus with 6 samples.

Results

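The 10 genes described here mark the keratinocyte-like mimetic cells of the thymus. They were chosen by name: Krtdap, Sbsn, Dmkn, Ivl, Lypd3, Grhl1, Grhl3, Spink5, Asprv1 and Calml3. All 10 were among the 15643 genes of the deposited table of molecule counts. The cells were medullary epithelial cells of the thymus with high MHC class II (mTEChi), sorted from NOD mice, a strain prone to autoimmune diabetes. All mice were 4.5 weeks old. The study set 3 libraries labelled Aire-/- (library numbers 746, 748 and 749), a knockout of the autoimmune regulator Aire by the labels, against 3 libraries labelled Aire+/+ (745, 750 and 753). Below, Aire-/- and Aire+/+ mean the libraries so labelled. The labels name no other allele or treatment, and do not say whether each library came from 1 mouse or a pool or which part of Aire is deleted. The p-values therefore measure the spread between these libraries. Libraries were built by MARS-seq, a 3′-end method in which each captured transcript carries a unique molecular identifier (UMI).

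Medullary thymic epithelial cells show proteins of the body's tissues to T cells in training, and Aire switches on many of those genes. Some of these cells take on the appearance of a peripheral cell type and are called mimetic cells, and the keratinocyte-like ones carry genes of the stratified epidermis. In skin, keratinocytes leave the basal layer and switch on secreted proteins, envelope proteins, proteases and their inhibitors, under factors that include the grainyhead-like (Grhl) family. The series title links loss of Aire to autoimmunity against tooth enamel, and the comparison of genotypes asks which transcripts of these cells differ without Aire.

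Krtdap, Dmkn and Sbsn lie side by side on the plus strand of chromosome 7 and Ivl lies on chromosome 3. The bases around their starts are shown because these 4 genes hold the same short motif there. All 4 encode secreted or envelope proteins. Each line runs from 150 bases before to 10 bases after the gene's start (RefSeq, GRCm38.p6, which is mm10), written 5′ to 3′ along the gene's strand. Capitals mark matches to the AP-1 motif TGANTCA, searched on both strands, and to the TATA box TATAAA, searched as written. No 2 marked matches overlap.
Krtdap, chr7:30787755-30787914, plus strand: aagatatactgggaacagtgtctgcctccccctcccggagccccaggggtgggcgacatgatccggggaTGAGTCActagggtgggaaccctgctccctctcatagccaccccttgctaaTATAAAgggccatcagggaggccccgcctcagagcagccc
Dmkn, chr7:30763606-30763765, plus strand: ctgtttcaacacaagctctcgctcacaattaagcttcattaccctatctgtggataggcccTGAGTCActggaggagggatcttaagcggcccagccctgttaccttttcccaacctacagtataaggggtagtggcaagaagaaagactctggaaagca
Sbsn, chr7:30751321-30751480, plus strand: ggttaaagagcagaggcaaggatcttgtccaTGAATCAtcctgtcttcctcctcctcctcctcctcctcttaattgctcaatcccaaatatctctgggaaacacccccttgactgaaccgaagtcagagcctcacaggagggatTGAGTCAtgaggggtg
Ivl, chr3:92573726-92573885, minus strand: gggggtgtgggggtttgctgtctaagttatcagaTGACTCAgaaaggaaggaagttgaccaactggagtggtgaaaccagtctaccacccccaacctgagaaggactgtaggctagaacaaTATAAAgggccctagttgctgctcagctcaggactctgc

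The AP-1 letters, which Fos and Jun proteins bind, began 81 bases before the start of Krtdap, 89 before Dmkn, 116 before Ivl, and 119 and 6 before Sbsn. Dmkn has 3 listed starts, and the letters were found before each. A TATA box began 30 bases before Krtdap and 29 before Ivl. Promoter windows of 300 bases were at hand for 8 of the 10 members, and the AP-1 letters were in those of 4, against 7.81% of all 32851 promoter windows. A member counted if any of its windows held a motif, while the percentages are over single windows. Dmkn and Grhl1 have more than a single window. For Lypd3 the window's start did not match the start of its annotated transcript. The TATA box was in 2 of the 8 (8.32% of all windows), the Grhl motif AACCGGT in 0 (1.02%) and the E-box CANNTG in 6 (72.3%). The matches are letters in a window. Whether a factor binds there was not measured.

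Library totals ran from 1014581 to 1960802 UMIs in Aire-/- and from 2736932 to 2887321 in Aire+/+, so that 3 UMIs, the most that a count of 0 allows, equal 1.53 to 2.96 and 1.04 to 1.10 CPM (UMIs per 1e6 of the library total, before scaling). CPM values below are scaled by TMM, which corrects for library composition. Transcripts of Aire itself stood at 4772, 8298 and 8372 UMIs in Aire-/- libraries and 6290, 6783 and 7290 in Aire+/+ libraries. In CPM this was 4827 ± 333 in Aire-/- and 2250.3 ± 192 in Aire+/+ (SD, n = 3 each). The groups did not overlap, and Aire was called higher, 2.14-fold, in the libraries labelled Aire-/- (edgeR adjusted p = 7.76e-05), opposite in direction to a loss of its transcript. Whether the counted 3′ end lies in the deleted part is not given, so these tags do not check the genotype and every direction below rests on the labels. Among 11956 genes tested with edgeR's quasi-likelihood test, 12.1% were called lower and 8.59% higher in Aire-/- at an adjusted p of 0.05. The higher genes numbered 1027, and 632 without Aire+/+ 745, 618 without Aire+/+ 753. Lower calls were 58.5% of all calls, and 78.3% when libraries were scaled by their totals alone, a setting in which the median log2 fold change of all genes was -0.22 in place of -0.02.

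The 10 genes did not move as a block. Krtdap, Sbsn, Ivl, Lypd3 and Spink5 fell in Aire-/- cells, Grhl3 rose, and Dmkn, Grhl1, Asprv1 and Calml3 were not called, which makes 5 lower (12.1% of all tested genes were) and 1 higher (8.59%). All 10 passed the filter on low counts, Ivl with 2 of 3 Aire-/- libraries above the filter's 4.26 CPM and the other members with all 6 libraries above it. Their median log2 fold change (Aire-/- over Aire+/+) was -0.52, against -0.02 over all tested genes. The genotypes did not overlap in CPM for the 6 called members, 5 lower and 1 higher, against 20.2% of all tested genes that did not overlap and were lower, 16.3% that were higher and 36.5% in either direction. Of the members, 3 were called lower without Aire-/- 748 or without Aire+/+ 753, and 0 higher without Aire+/+ 745. Together the 10 genes held 1207, 796 and 1220 CPM in Aire-/- libraries and 1181, 1381 and 1497 CPM in Aire+/+ libraries, and these sums overlapped. In sorted cells counted in bulk, fewer keratinocyte-like cells and less RNA per cell cannot be told apart.

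**Figure D1:**
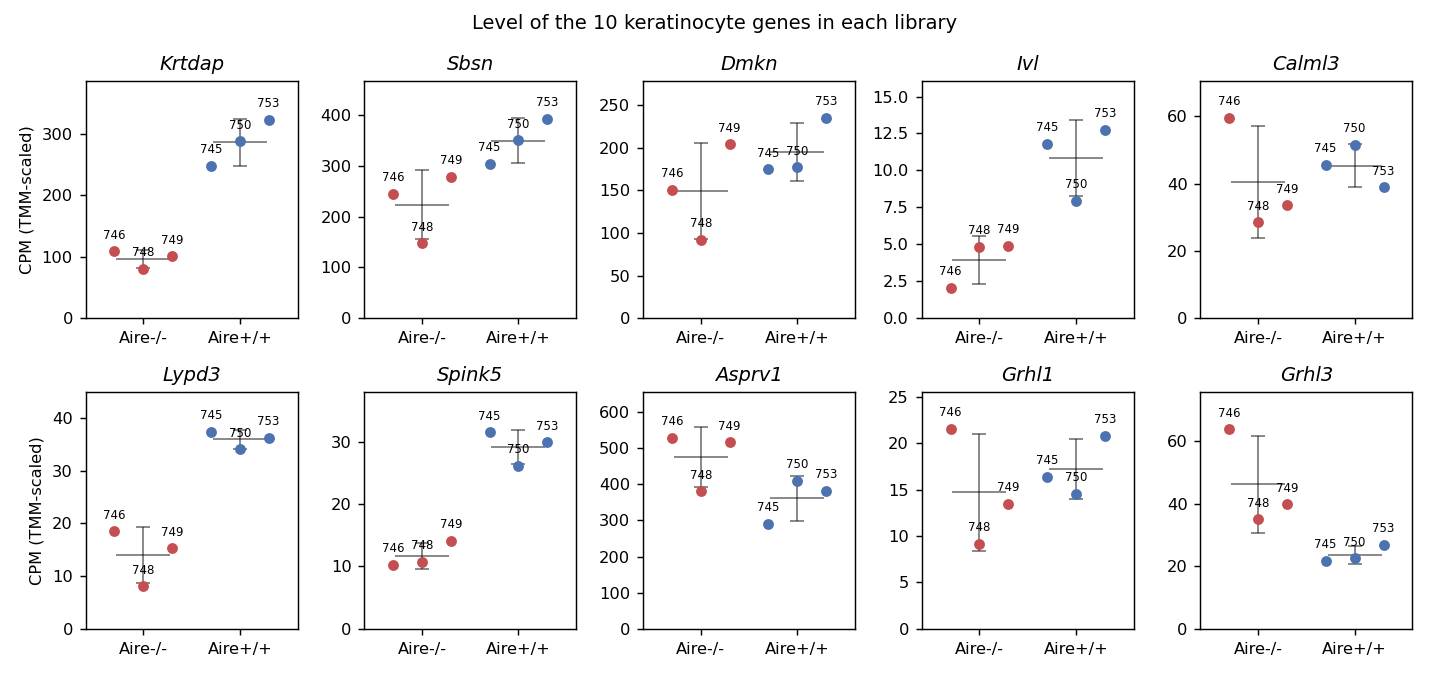
CPM (TMM-scaled, linear axis from 0) of each of the 10 genes in every library, with Aire-/- left of Aire+/+, points labelled by library number, and the mean and SD of 3 libraries in black. Krtdap, Sbsn, Lypd3, Spink5 and Ivl are lower in every Aire-/- library than in any Aire+/+ library, Grhl3 is higher in every one, and Dmkn, Calml3, Grhl1 and Asprv1 overlap.

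**Figure D2:**
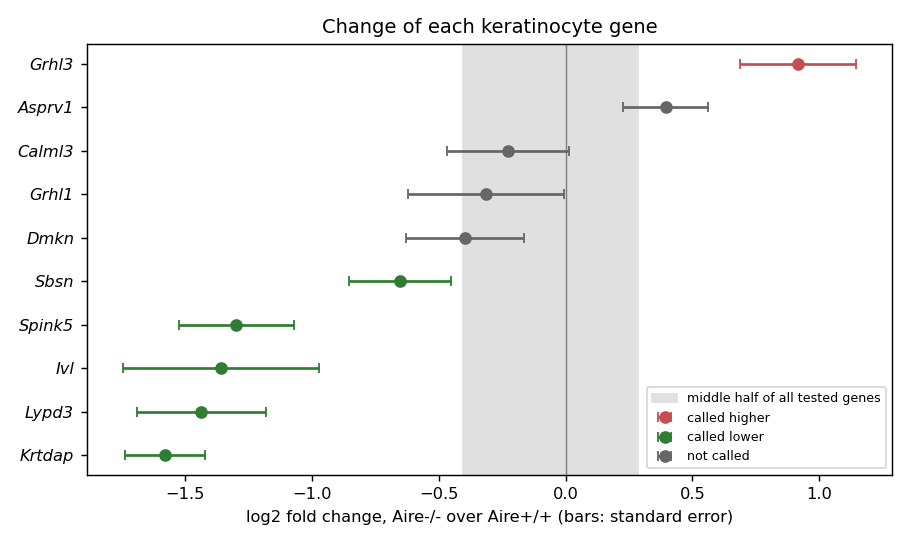
log2 fold change of Aire-/- over Aire+/+ (x axis) for each gene (y axis), with bars for the standard error and a grey band from -0.40 to 0.28, the 25th and 75th percentiles of all tested genes. The values run from -1.58 for Krtdap to 0.92 for Grhl3.

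Of the secreted proteins of the chromosome 7 cluster, Krtdap and Sbsn fell and Dmkn was not called. Krtdap encodes keratinocyte differentiation-associated protein, a small protein that keratinocytes secrete as they leave the basal layer (positions 30787896 to 30791097, mm10). It had 106, 149 and 165 UMIs in Aire-/- libraries against 755, 871 and 961 in Aire+/+ libraries. Every Aire-/- library was well below every Aire+/+ library, also in CPM: 96.6 ± 14.8 CPM in Aire-/- and 286 ± 37.5 CPM in Aire+/+ (SD, n = 3 each). The log2 difference was -1.58 (edgeR adjusted p = 1.59e-05, standard error 0.16), a 2.98-fold lower level. This was the lowest adjusted p of the 10 genes.

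Sbsn, suprabasin, is secreted by suprabasal keratinocytes (positions 30751471 to 30756134). It had 238, 274 and 455 UMIs in Aire-/- libraries and 927, 1061 and 1171 in Aire+/+ libraries, or 223 ± 67.9 against 349 ± 44.6 CPM (SD, n = 3 each). The groups did not overlap, but library 749 at 278 CPM came close to library 745 at 304 CPM. Sbsn fell by 0.65 on the log2 scale (edgeR adjusted p = 0.0356, standard error 0.20). The call was lost without Aire-/- 748 (log2 fold change -0.41, edgeR adjusted p = 0.126), without Aire+/+ 750 (-0.65, 0.0947), without Aire+/+ 753 (-0.56, 0.14) and with 746 and 753 both left out (-0.63, 0.126). Over 280 nt its 3′ end equals that of Tmem147os, a non-coding transcript on the same strand, so tags of the pair cannot be told apart.

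Dmkn, dermokine, is a secreted protein of the upper epidermal layers that lies between Sbsn and Krtdap (positions 30763756 to 30781063). Its UMIs were 147, 171 and 334 in Aire-/- libraries and 533, 536 and 700 in Aire+/+ libraries, or 149 ± 56.1 and 196 ± 34.1 CPM (SD, n = 3 each). Library 749, at 204 CPM, lay inside the Aire+/+ range, while 748 was lowest at 92.0 CPM. Dmkn, at -0.40 on the log2 scale, was not called (edgeR adjusted p = 0.273, standard error 0.23). Without Aire-/- 749 it was called lower (-0.72, edgeR adjusted p = 0.0148), and without Aire-/- 748 its value was -0.12.

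Ratios of these neighbours inside a library need no scaling. The UMIs of Krtdap divided by those of Sbsn gave 0.445, 0.544 and 0.363 in Aire-/- libraries against 0.814, 0.821 and 0.821 in Aire+/+ libraries. The Aire+/+ ratios were nearly the same, and each Aire-/- ratio was lower. On the log2 scale Krtdap over Sbsn differed by -0.88 (Aire-/- minus Aire+/+), Krtdap over Dmkn by -1.12 and Sbsn over Dmkn by -0.23. No Aire-/- ratio overlapped an Aire+/+ ratio in any of the 3 pairs. An exact two-sided permutation test gave p = 0.1 for each (0.1 adjusted over 4 pairs), the smallest that 3 against 3 libraries allow, so the test could not reach 0.05. The pairs were picked after the values were seen, and the ratios are a description.

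Few transcripts came from the genes that flank the cluster. Ffar2, a receptor for short-chain fatty acids 27250 bases beyond Krtdap, had 0, 3 and 2 UMIs in Aire-/- libraries and 11, 23 and 17 in Aire+/+ libraries. Gapdhs, the sperm form of a glycolytic enzyme 7789 bases before Sbsn, had 1, 3 and 4 UMIs in Aire-/- libraries and 11, 4 and 7 in Aire+/+ libraries. Neither reached the filter on low counts, and so neither was tested.

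**Figure D3:**
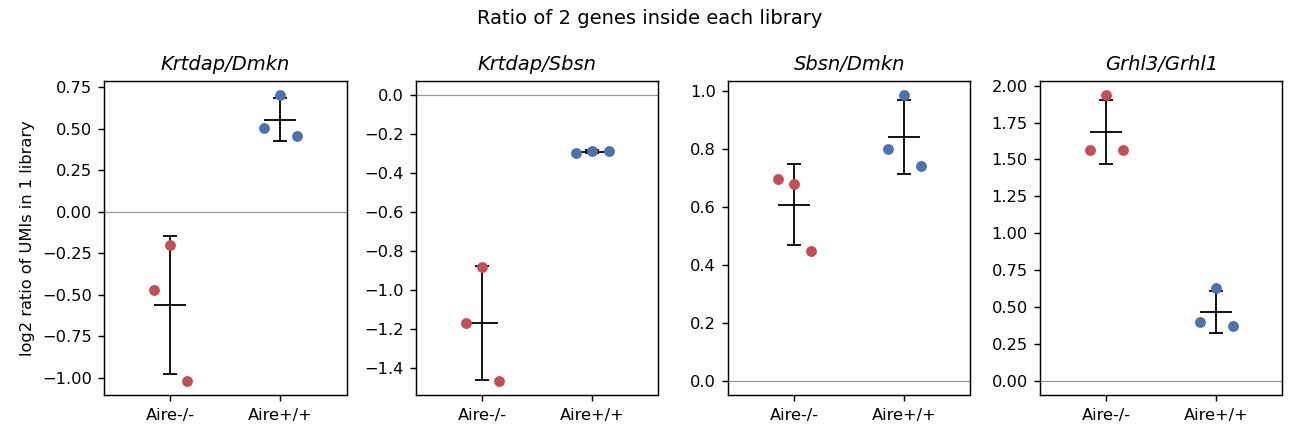
log2 ratio of the UMIs of 2 genes inside each library (y axis), with Aire-/- left of Aire+/+, one point per library and the mean and SD in black. Krtdap falls below Dmkn (a log2 ratio under 0) in all 3 Aire-/- libraries and exceeds it in all 3 Aire+/+ libraries, and Grhl3 over Grhl1 is higher in Aire-/-.

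Ivl encodes involucrin, a scaffold of the cornified envelope that transglutaminases crosslink beneath the membrane (chromosome 3, positions 92570902 to 92573735, minus strand). It was the least counted member, at 2, 9 and 8 UMIs in Aire-/- libraries and 36, 24 and 38 in Aire+/+ libraries. Aire-/- 746 was lowest, with fewer than the 3 UMIs that a count of 0 allows. Means were 3.93 ± 1.62 CPM in Aire-/- and 10.8 ± 2.56 CPM in Aire+/+ (SD, n = 3 each). The log2 difference was -1.36 (edgeR adjusted p = 0.0242, standard error 0.39). The call was lost without Aire-/- 746 (-1.14, edgeR adjusted p = 0.0557), Aire-/- 748 (-1.50, 0.0536), Aire+/+ 745 (-1.30, 0.0792) or Aire+/+ 753 (-1.23, 0.0943), without 746 and 753 together (-1.02, 0.172), and with DESeq2 (-1.38, DESeq2 adjusted p = 0.0686). Its nearest measured neighbours, Sprr4 and Smcp, were under the filter. Sprr4, a small proline-rich protein gene, had 1, 0 and 1 UMIs in Aire-/- libraries and 6, 6 and 4 in Aire+/+ libraries, and Smcp, a sperm protein gene, had 0, 1 and 1 against 16, 7 and 2.

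Lypd3 encodes a membrane-anchored protein of the Ly6/uPAR family found on suprabasal keratinocytes (chromosome 7, positions 24636550 to 24641118). It had 18, 15 and 25 UMIs in Aire-/- libraries and 114, 103 and 108 in Aire+/+ libraries. The Aire+/+ libraries lay close together and every Aire-/- library was below them: 13.9 ± 5.33 against 35.9 ± 1.71 CPM (SD, n = 3 each). Lypd3 fell by 1.43 on the log2 scale (edgeR adjusted p = 0.00125, standard error 0.26). An antisense gene, Gm26550, overlaps it, and no source used here gives the strand setting of the counting, so reads of the pair may be mixed. Next to it Phldb3 was not called (log2 fold change -0.25), and Tex101, a testis protein of the same family, had 0, 1 and 0 UMIs in Aire-/- libraries and 11, 7 and 9 in Aire+/+ libraries.

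Spink5 encodes LEKTI, the inhibitor of epidermal kallikreins that is mutated in Netherton syndrome (chromosome 18, positions 43963235 to 44022501). It had 10, 20 and 23 UMIs in Aire-/- libraries and 96, 79 and 89 in Aire+/+ libraries, and the groups lay far apart. Its level was 11.7 ± 2.06 CPM in Aire-/- and 29.2 ± 2.76 CPM in Aire+/+ (SD, n = 3 each). The log2 difference was -1.30 (edgeR adjusted p = 0.0011, standard error 0.23). The kallikreins that LEKTI inhibits fell as well, with log2 fold changes of -3.82 for Klk5, -4.05 for Klk14 and -1.39 for Klk7 (edgeR adjusted p = 1.38e-05, 3.28e-06 and 0.0251). Klk7 had 94, 36 and 108 UMIs in Aire-/- libraries against 289, 503 and 573 in Aire+/+ libraries, and its groups overlapped in CPM. The Klk7 call was lost with DESeq2 (-1.31, DESeq2 adjusted p = 0.202), without Aire+/+ 750 (-1.31, edgeR adjusted p = 0.0825) and without Aire+/+ 753 (-1.17, 0.107). Klk14 had 3, 4 and 2 UMIs in Aire-/- libraries and passed the filter only through the Aire+/+ libraries. The 3′ end of Klk14 is shared with the transcript 2310002F09Rik. The nearest measured genes around Spink5 were Gm94, 170356 bases away, and Spink14, 5367 bases away. Gm94 fell by 2.67 (edgeR adjusted p = 1.02e-05). Spink14, another inhibitor gene, had 0, 2 and 0 UMIs in Aire-/- libraries and 15, 3 and 1 in Aire+/+ libraries.

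Asprv1 encodes a retroviral-like aspartic protease that trims profilaggrin in the upper epidermis (chromosome 6, positions 86628164 to 86629710). It had 514, 706 and 843 UMIs in Aire-/- libraries and 886, 1238 and 1135 in Aire+/+ libraries, or 474 ± 82.1 and 360 ± 61.9 CPM (SD, n = 3 each). Libraries 746 and 749 were above all Aire+/+ libraries and 748 was inside their range. Its log2 difference of 0.39 was not called (edgeR adjusted p = 0.123, standard error 0.17). Mxd1, which lies 17331 bases further on and encodes a partner of Max that opposes Myc in differentiating cells, rose by 1.03 (edgeR adjusted p = 0.00374), and 1600020E01Rik on the other side was not called (-0.35).

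Calml3 encodes a calmodulin-like protein of stratified epithelia (chromosome 13, positions 3802896 to 3804316, minus strand). It had 58, 53 and 55 UMIs in Aire-/- libraries and 139, 156 and 116 in Aire+/+ libraries. In CPM the groups overlapped, at 40.6 ± 16.6 CPM in Aire-/- and 45.4 ± 6.30 CPM in Aire+/+ (SD, n = 3 each), with 746 above every other library. At -0.23 on the log2 scale it was not called (edgeR adjusted p = 0.568, standard error 0.24), and neither were its relatives Calm4 (-0.46), Calm2 (-0.05) and Calm3 (0.43).

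Of the Grhl factors, which bind promoters of epidermal barrier and adhesion genes, Grhl3 rose and Grhl1 was not called. Grhl3, needed for the skin barrier in mice (chromosome 4, positions 135541888 to 135573630, minus strand), had 62, 65 and 65 UMIs in Aire-/- libraries and 66, 68 and 80 in Aire+/+ libraries. Since the Aire-/- libraries were shallower, this is 46.1 ± 15.4 against 23.7 ± 2.80 CPM (SD, n = 3 each), with each Aire-/- library above each Aire+/+ library. Grhl3 rose by 0.92 on the log2 scale (edgeR adjusted p = 0.0116, standard error 0.23), and by 0.72 with scaling by library totals (edgeR adjusted p = 0.0402). The call was lost without Aire+/+ 745 (0.85, edgeR adjusted p = 0.0552).

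Grhl1, a regulator of desmosomal cadherins (chromosome 12, positions 24572283 to 24617391), had 21, 17 and 22 UMIs in Aire-/- libraries and 50, 44 and 62 in Aire+/+ libraries. Its groups overlapped, at 14.7 ± 6.30 CPM in Aire-/- and 17.2 ± 3.22 CPM in Aire+/+ (SD, n = 3 each), and at -0.31 on the log2 scale it was not called (edgeR adjusted p = 0.534, standard error 0.31). Inside each library Grhl3 exceeded Grhl1 by log2 ratios of 1.56, 1.93 and 1.56 in Aire-/- and 0.40, 0.63 and 0.37 in Aire+/+, a difference of 1.22 (exact two-sided permutation p = 0.1, the smallest possible, for a pair also picked after the values were seen). The third factor, Grhl2, had 3, 13 and 1 UMIs in Aire-/- libraries and 28, 15 and 10 in Aire+/+ libraries and was not called. Of the nearest measured genes around Grhl1 and Grhl3, Ifnlr1, a receptor chain for lambda interferons, was called lower at -1.11 (edgeR adjusted p = 0.0421). Ifnlr1 lies 112656 bases from Grhl3. The Ifnlr1 call was lost with DESeq2 (-1.10, DESeq2 adjusted p = 0.174), without any 1 of the 6 libraries (edgeR adjusted p from 0.053 to 0.157) and without 746 and 753 together (-1.06, 0.157). Taf1b was not called (-0.32), and Klf11 and Stpg1 carry no test.

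The authors' deposited table holds their own DESeq2 comparison, in which a positive value means higher in Aire+/+. In the authors' deposited table Krtdap (log2 fold change 1.57, adjusted p = 5.48e-15), Lypd3 (1.41, 0.000357) and Spink5 (1.30, 0.00179) were selected as changed. Sbsn (0.64, 0.0206) and Grhl3 (-0.94, 0.00866) were below an adjusted p of 0.05 in the authors' deposited table but were not selected, and Ivl had 0.0685.

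Library 748 stood low for these genes. Among the Aire-/- libraries 8 of the 10 members had their lowest CPM in 748 and 2, Ivl and Spink5, in 746. Over all tested genes 27.4% were lowest in 748, and over the 148 tested genes of the role lists 39.9%. Without 748 the calls for Krtdap (log2 fold change -1.44), Lypd3 (-1.10), Spink5 (-1.21) and Grhl3 (1.10) held. With 746 and 753 left out together 3 members were lower and 1 higher. Krtdap, Lypd3 and Spink5 were called lower under each alternative that was run, and the sign of every member was the same in all of them.

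**Figure D4:**
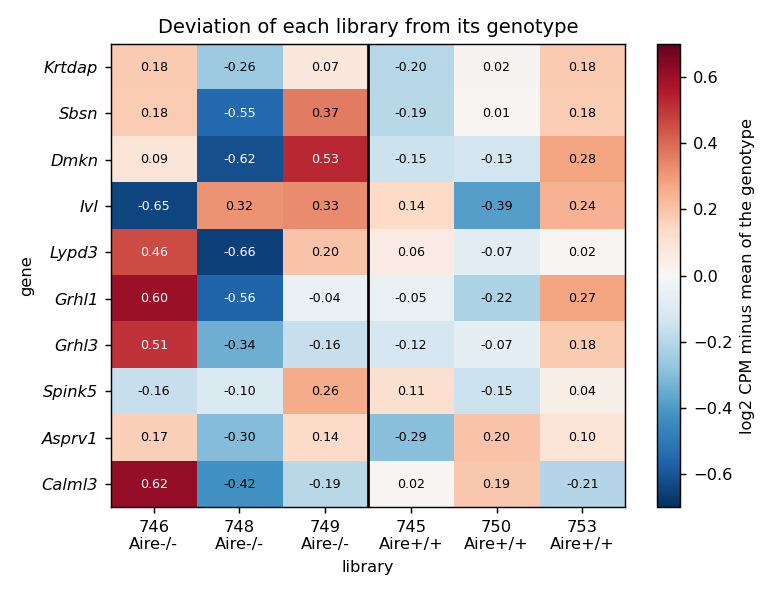
log2 CPM of each gene (rows) in each library (columns) minus the mean of its genotype, Aire-/- left of Aire+/+; red is above the genotype's mean and blue below. Library 748 is below its genotype's mean for every gene but Ivl.

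Other genes of keratinocyte differentiation were read from 8 lists ordered by role, without the members. Over all lists 148 genes were tested, of which 56 were lower and 8 higher in Aire-/- cells (37.8% and 5.41%, against 12.1% and 8.59% of all tested genes). Their median log2 fold change was -0.49. Some of the 148, among them Krt4, Krt13, Klk10, Klk14 and Tfap2b, were under the filter's 4.26 CPM in every Aire-/- library. Such genes passed the filter only through the Aire+/+ libraries, so their lower calls are no independent support for the share. The share over all tested genes can hold such genes too, and how many there were was not counted.

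Structural proteins of the cornified layers were mostly lower. Of 17 tested envelope proteins 11 fell and 1, the protease inhibitor Cstb, rose by 0.72, with a list median of -1.46. S100a9 and S100a8, calcium-binding proteins of stressed epidermis and of granulocytes, had log2 fold changes of -4.01 and -2.04, and Sprr2d, a small proline-rich crosslinked protein, of -3.12 (edgeR adjusted p = 2.57e-06, 2.97e-05 and 3.6e-05). Loricrin, Lor, the main envelope protein, had 99, 33 and 80 UMIs in Aire-/- libraries and 139, 210 and 150 in Aire+/+ libraries and was not called (-0.08). Its Aire-/- libraries were spread widely, at 102, 17.8 and 48.9 CPM. The value was -0.74 without Aire-/- 746 and 0.41 without Aire-/- 748, not called in either setting. Of 18 epidermal keratins 11 fell and 2 rose, with a median of -1.66. Krt1, a keratin of the suprabasal epidermis, had 10, 14 and 14 UMIs in Aire-/- libraries against 257, 206 and 184 in Aire+/+ libraries and fell by 3.05 (edgeR adjusted p = 1.59e-06). Krt13 and Krt4, the keratin pair of oral and oesophageal mucosa, were at -5.28 and -4.55 on the log2 scale (edgeR adjusted p = 2.84e-06 and 3.18e-06). Krt13 had 0, 3 and 1 UMIs in Aire-/- libraries and 127, 109 and 96 in Aire+/+ libraries. Krt4 had 4, 3 and 1 against 118, 127 and 149. Both passed the filter only through the Aire+/+ libraries, and their fitted values rest on few molecules in Aire-/-. Krt5 (-0.24) and Krt14 (-0.16), the pair of the basal layer, were not called. The keratins that rose were Krt79 (1.57), found in hair follicle canals, and Krt78 (0.66). The Krt78 call was lost with scaling by library totals (0.47, edgeR adjusted p = 0.0949), without Aire+/+ 745 (0.63, 0.0776), without Aire+/+ 753 (0.63, 0.0771) and without 746 and 753 together (0.45, 0.153).

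Proteases and their inhibitors were lower in 14 and higher in 2 of 22 tested genes, with a median of -1.32. Klk5 had 5, 2 and 8 UMIs in Aire-/- libraries and 109, 172 and 160 in Aire+/+ libraries, and Klk14 had 3, 4 and 2 against 107, 115 and 89. Serpinb2, an intracellular inhibitor of plasminogen activators, went the other way, at 447 CPM in Aire-/- and 119 CPM in Aire+/+, and rose by 1.91 (edgeR adjusted p = 2.66e-06). Tmprss11d, an airway trypsin-like protease, also rose, by 0.88 (edgeR adjusted p = 0.00814), and its call was lost without Aire+/+ 745 (0.80, edgeR adjusted p = 0.0509), where the higher genes of the list were 1. Further kallikreins were called lower, among them Klk6 (-1.76), Klk8 (-1.24), Klk10 (-5.24) and Klk13 (-3.64). Klk10 had 1, 1 and 0 UMIs in Aire-/- libraries and 22, 81 and 69 in Aire+/+ libraries. Klk13 had 6, 1 and 1 against 60, 72 and 81. The fitted values of Klk10 and Klk13 therefore rest on few molecules in Aire-/-, and Klk10 passed the filter only through the Aire+/+ libraries. The groups of Klk6 overlapped, and its call was lost with DESeq2 (-1.63, DESeq2 adjusted p = 0.084). Among relatives of Lypd3 and Calml3, 7 of 18 fell and 0 rose (median -0.48). The smallest p-values were those of Psca (-4.19), Lypd2 (-3.90) and Ly6d (-1.41), all of the Ly6/uPAR family (edgeR adjusted p = 1.05e-07, 2.56e-06 and 9.23e-06). The count of 0 from edgeR was 0 also at an unadjusted p under 0.05 and with DESeq2, and 1 without Aire-/- 748.

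Enzymes of crosslinking and barrier lipids fell in 6 and rose in 1 of 17 tested genes, with a median of -0.16. Alox12b, a lipoxygenase of the barrier, fell by 2.59 (edgeR adjusted p = 0.000186). Lipm, a lipase, and Alox8, another lipoxygenase, were called lower at -1.75 and -1.14. The Alox8 call was lost with DESeq2 (-1.13, DESeq2 adjusted p = 0.0547), without Aire-/- 748 (edgeR adjusted p = 0.0654) and without Aire+/+ 753 (-1.10, 0.0537). Elovl3, an elongase of very long chain fatty acids, was called higher at 2.34 (edgeR adjusted p = 0.0205), although its groups overlapped. It stood at 35.9, 4.30 and 39.1 CPM in Aire-/- libraries and 4.26, 1.98 and 8.73 CPM in Aire+/+ libraries. The 3′ end of Lipm is shared with Ankrd22. The 6 became 2 with DESeq2 or without Aire-/- 748, and 3 without Aire+/+ 745 or Aire+/+ 753. Elovl3 was not called with DESeq2 (2.42, DESeq2 adjusted p = 0.0851), without Aire-/- 749 (1.79, edgeR adjusted p = 0.0676), without Aire+/+ 745 (2.23, 0.0798) or without Aire+/+ 750 (1.96, 0.0829).

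Most adhesion genes, transcription factors and reported Grhl targets were not called. Of 21 adhesion genes 3 fell and 1 rose (14.3% and 4.76%, median -0.26). Gjb2, connexin 26, rose by 1.55 (edgeR adjusted p = 6.6e-06) and Perp, a desmosomal protein, fell by 1.09 (edgeR adjusted p = 0.00108). Gja1, connexin 43, was called lower, at -0.65, but part of its 3′ end matches 220 other genes. Its call was lost without Aire-/- 748 (-0.59, edgeR adjusted p = 0.0541), without Aire+/+ 753 (-0.55, 0.065) and without 746 and 753 together (-0.54, 0.0838). In each of these settings 1 adhesion gene was called lower.

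Of 30 transcription factors 3 fell and 1 rose (10% and 3.33%). Their median was 0.07, and -0.13 when libraries were scaled by their totals, a setting that moved all genes down. Tfap2b, an AP-2 factor, had 0 UMIs in every Aire-/- library and 24, 22 and 23 in Aire+/+ libraries. Against a floor of 3 UMIs summed over the Aire-/- libraries, it was at least 11.4-fold lower (edgeR adjusted p = 0.000276). Hopx was called lower at -0.84, although its groups overlapped, and Cebpb higher at 0.80. The Hopx call was lost without Aire-/- 748 (-0.73, edgeR adjusted p = 0.104), Aire-/- 749 (-0.67, 0.0521), Aire+/+ 750 (-0.62, 0.126) or Aire+/+ 753 (-0.87, 0.0615). The Cebpb call was lost with scaling by library totals (0.61, edgeR adjusted p = 0.0639), without Aire+/+ 745 (0.78, 0.0634) or Aire+/+ 753 (0.73, 0.0738), and without 746 and 753 together (0.45, 0.143). The factors called lower were 1 without Aire-/- 748 and 5 without Aire-/- 746. Those called higher were 3 without Aire-/- 749 and 0 without Aire+/+ 745 or without Aire+/+ 753.

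Of 18 genes reported as Grhl targets 1, Arhgef19, fell (-1.60, edgeR adjusted p = 0.0236) and 0 rose (median -0.05). The 0 higher from edgeR was also 0 at an unadjusted p under 0.05 and with DESeq2. Targets that were lower numbered 4 at an unadjusted edgeR p under 0.05, and 0 with DESeq2. Esrp1 (-0.37), an epithelial splicing factor, was not called. The Arhgef19 call was lost with DESeq2 (-1.64, DESeq2 adjusted p = 0.054), without Aire-/- 749 (-1.18, edgeR adjusted p = 0.0754), Aire+/+ 745 (-1.48, 0.0881) or Aire+/+ 753 (-1.64, 0.0583), and without 746 and 753 together (-1.50, 0.11). Targets called lower were 0 without Aire+/+ 745 or without Aire+/+ 753, and 2 without Aire-/- 749.

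**Figure D5:**
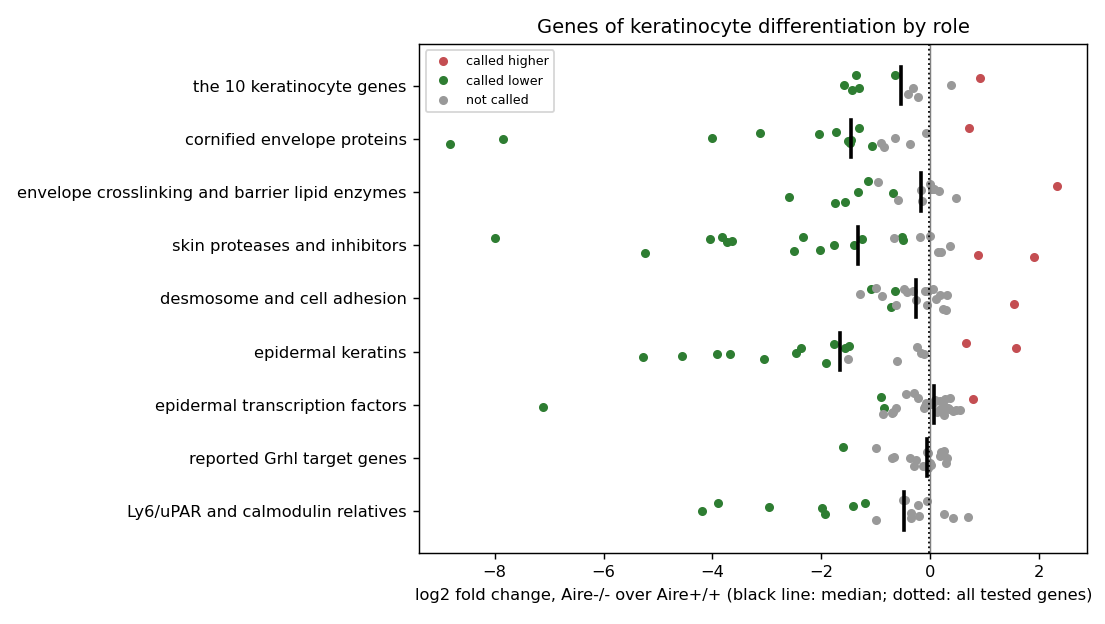
log2 fold change of Aire-/- over Aire+/+ (x axis) for each tested gene of the 8 role lists and of the 10 keratinocyte genes (rows), coloured by call, with the list median in black and the median of all tested genes dotted. Keratins have the lowest median, -1.66, followed by envelope proteins at -1.46. The fitted values far below -5 belong to genes with few or no UMIs in Aire-/- libraries and are no bounds.

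The 5 tested genes whose log2 CPM followed the members' mean most closely over the 6 libraries, with Pearson's r of 0.987 to 0.989, were Clip3, Cd14, Gfi1b, Uchl3 and Klk7. The r is a description: the points share library and depth, and the libraries fall into 2 genotypes. Klk7 was called lower, and Clip3 (log2 fold change -0.99), Cd14 (-0.57), Gfi1b (-1.40) and Uchl3 (-0.29) were not. With scaling by library totals these 4 were also called lower (edgeR adjusted p from 0.0119 to 0.0469). The 3′ end of Uchl3 matches Uchl4 at 97.5% identity over 278 nt.

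Some marker lists differed with the genotype, and others overlapped. Their counts stand against 8.59% of all tested genes called higher and 12.1% called lower. Of 11 measured mTEC markers 6 were higher in Aire-/- cells, with summed levels of 65900 to 75100 CPM in Aire-/- and 37700 to 44900 CPM in Aire+/+. Most of these sums came from H2-Ab1, H2-Aa and Cd74 of the MHC class II pathway, on which the cells were sorted. Their means were 23572, 18779 and 24115 CPM in Aire-/- and 11921, 10772 and 14478 CPM in Aire+/+. The mTEC markers Epcam (log2 fold change 0.01), Cd40 (-0.04), Fezf2 (-0.14), Krt5 (-0.24) and Tnfrsf11a (-0.41) were not called. Of 7 cortical markers 6 were higher (2320 to 2420 against 998 to 1340 CPM). Fibroblast markers (2 of 4 tested higher) summed to 621, 183 and 155 CPM in Aire-/- libraries 746, 748 and 749 and to 67.4 to 105 CPM in Aire+/+. The 2 called higher were Dcn, whose groups did not overlap, and Col3a1, whose groups did. Col3a1 stood at 195, 37.1 and 8.56 CPM in these Aire-/- libraries, highest in 746. Dendritic cell and macrophage markers (1 of 9 higher) summed to 1460 to 2400 and 1220 to 1360 CPM, B cell markers (1 of 5 higher) to 113 to 229 and 128 to 155 CPM, thymocyte markers to 153 to 249 and 139 to 218 CPM, and endothelial markers to 16.1 to 33.0 and 26.4 to 33.1 CPM. Of the 9 thymocyte and 3 endothelial markers tested, 0 were called with edgeR, and 0 at an unadjusted p under 0.05 or with DESeq2. The sums of the B cell, thymocyte and endothelial lists overlapped between genotypes.

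Of the other mimetic types, neuroendocrine markers summed to 572 to 628 CPM in Aire-/- and 309 to 383 CPM in Aire+/+ (2 of 3 higher, 1 lower). Most of the sum came from the higher Chga and Insm1, at means of 243 and 356 CPM in Aire-/-. Scg2 was called lower (log2 fold change -1.66). Chgb, under the filter, had 0, 2 and 0 UMIs in Aire-/- libraries and 9, 22 and 14 in Aire+/+ libraries. With DESeq2 2 neuroendocrine markers were lower and 2 higher. Tuft markers summed to 111 to 159 CPM in Aire-/- and 71.2 to 96.8 CPM in Aire+/+ (1 of 5 higher). Microfold markers were at 400 to 410 and 481 to 509 CPM (2 of 6 lower), ciliated markers at 91.4 to 149 and 217 to 308 CPM (3 of 4 lower) and muscle markers at 48.3 to 82.5 and 120 to 168 CPM (3 of 5 lower). Dnah5 and Ccdc39 of the ciliated list and Myod1 and Actc1 of the muscle list were at 0 UMIs in every Aire-/- library. No marker in the table was at 0 in every Aire+/+ library. Dnah5, Ccdc39 and Myod1 were under the filter, and Myod1 had only 3, 9 and 5 UMIs in the deeper Aire+/+ libraries. Myog (log2 fold change 0.64) and Ttn (-0.19) of the muscle list and Dnah9 (-0.91) of the ciliated list were not called. Ccl21a, Xcr1, Pdgfra, Lum, Chat, Sox8, Neurod1, Pcsk1 and Chrna1 were not analysed here. The part of these shifts in the results for the keratinocyte genes was not tested.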

How the data were processed

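Sorted mTEChi gave 6 libraries by MARS-seq, 3 Aire-/- and 3 Aire+/+. The notes of the submitters on processing list mm10 and STAR 2.4.2a, HTSeq, cutadapt, bcl2fastq and DESeq2, with no roles given. How UMIs were collapsed, the annotation and the strand setting are not stated there. The deposited table holds raw UMI counts per gene symbol, which were used here. Per the file headers it has, beside these, the authors' normalized signal and their regularized log2 values, left aside here, and the authors' log2 fold changes, p-values and selection marks.

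The comparison of genotypes used quasi-likelihood tests of edgeR 4.0.16 in R 4.3.3, with TMM scaling, filterByExpr with min.count 10, Benjamini-Hochberg adjustment over 11956 genes, threshold 0.05. The standard error of a log2 fold change was its size divided by the root of F. DESeq2 1.42.0, other scalings and filters, and leaving out libraries were alternatives. The members, lists and tests were chosen with earlier results of these data known. Named genes were the members, their nearest measured neighbours and relatives, the 3 genes of each list with the smallest p, and the 5 most alike in pattern; others were named after their values were seen. Some genes that this rule names are not reported here. Positions are GENCODE M21 (mm10); the last 300 nt of transcripts of named genes were searched with blastn 2.17.0 (matches of at least 80 nt and 90% identity). Counting limits cover counting error only.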

Additional observations from a re-analysis of the deposited data

How the results depend on the processing

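No paired analysis was possible because the library numbers differ between the genotypes. The log2 fold change of every member kept its sign under each alternative run, and counts of calls have no sign to change. Signs did change for some named genes outside the members that were not called. Examples are Lor (0.41 without Aire-/- 748), Krt5 (0.08 without Aire-/- 749) and Krt14 (0.07 without Aire-/- 749). The cause of each shift below was not tested.

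With RLE size factors 2 Grhl targets were called lower in place of 1. With library totals 567 genes were higher (1027 in the reported fit), 6 adhesion genes, 6 factors and 4 Grhl targets were lower, and 1 keratin and 0 factors were higher. With upper quartile scaling 5 factors and 2 Grhl targets were lower, with min.count 3 the counts were 6 and 2, and with no filter 5 and 2. With DESeq2 2 lipid and crosslinking enzymes and 0 Grhl targets were lower, and 0 lipid enzymes were higher. Leaving out 746 and 753 together gave 652 genes higher, 3 members, 1 adhesion gene and 0 Grhl targets lower, and 1 keratin and 0 factors higher.

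Leaving out 1 library in turn gave 1098 to 1899 genes lower and 618 to 1156 higher, with 3 to 6 members lower and 0 to 1 higher. Lower calls ran from 10 to 14 for envelope proteins, 2 to 6 for lipid enzymes, 10 to 15 for proteases and inhibitors, 1 to 3 for adhesion, 11 to 12 for keratins, 1 to 5 for factors, 0 to 2 for Grhl targets and 6 to 8 for Ly6 and calmodulin relatives. Higher calls ran from 0 to 1 for lipid enzymes and for Ly6 and calmodulin relatives, 1 to 3 for proteases, 1 to 2 for keratins and 0 to 3 for factors. Ivl, with 2 to 9 UMIs in the Aire-/- libraries, rests on few molecules. Of 36 called genes that are named beside the members, 25 were called in all 13 alternatives and 11 lost the call in at least 1, a count made after the values were seen.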
